A study of Bos taurus with 2 samples.

Results

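Bovine chromosomes 6, 9 and 12 carried the fewest merged H3K4me3 regions per Mb of all autosomes in the longissimus dorsi (LD) of Angus steers, and the map of the mark along these 3 chromosomes is described here. Every peak that the tender or the tough list places on chromosome 6, 9 or 12 was taken, and peaks of both lists that overlapped by 1 bp or more were merged into 1 region. The 816 tender and 717 tough peaks gave 896 regions, which were 6.28% of the 14264 regions of the whole series. Chromosome 6 held 330 regions, chromosome 9 held 324 and chromosome 12 held 242. The chromosomes were chosen by the number of peaks per Mb in these same lists, so density, gaps and the other measures of spacing that follow from it are a description and were not tested.

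H3K4me3, histone H3 with a trimethylated lysine 4, lies on the nucleosomes around the start sites of active and poised genes, and it is narrow at most of them. Broad stretches of the mark are known mainly from genes that define the identity of a cell, and CpG-rich promoters in gene-dense parts of a genome carry it in most tissues. Long stretches without genes normally lack it, so a chromosome map of H3K4me3 follows in large part the promoters of active and poised genes. The LD is the large muscle along the back from which loin steaks are cut, and it consists mostly of muscle fibres. Chromosome 6 carries, among others, the casein genes of the mammary gland (CSN2), the growth loci NCAPG and LCORL, the receptor gene KIT and the muscle genes MYOZ2, SGCB and PPARGC1A. Chromosome 9 carries PLN, the regulator of the calcium pump of muscle, and LAMA2, a component of the basement membrane of muscle fibres. Chromosome 12 carries FOXO1, a transcription factor that acts in muscle wasting, and RB1, a brake on the cell cycle. These genes are named as background from the RefSeq gene list. The build of the peak positions is not stated in the lists, so no peak was assigned to a gene and the tissue was not checked against marker genes.

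The steers were purebred Angus animals of about 12 months of age, and all belonged to 1 herd. Chromatin of 4 tender steers was combined into 1 library and chromatin of 5 tough steers into the other. Warner-Bratzler shear force, the force that cuts a core of cooked meat, was 6.77 ± 0.56 kg in the tender and 19.93 ± 0.39 kg in the tough group by the paper. Steers were placed in the groups by this force alone, and both groups went through the same steps with an antibody against H3K4me3. With 1 pooled library a group there were no replicates, so differences between tender and tough have no replicate check, no test was made between the groups, and intervals cover counting error only.

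A peak is called an island by SICER, the peak caller used by the authors. It joins windows of 200 bp that hold more reads than the mean of the genome predicts, and a window adds to the score the more, the less probable its reads are under a Poisson distribution. A score rises with the reads of a window and with the width of the peak. The scores imply a mean of 0.157 reads per window in the tender library and of 0.182 in the tough library. The tender list began at a score of 23.2 and the tough list at 25.2. Peaks up to a score of 180 could be turned back into whole numbers of reads, and the median peak of the 3 chromosomes rested on 20 reads in the tender and 22 reads in the tough list. On the other 26 autosomes these medians were 21 and 23 reads. Since the peaks come from 1 library each, they are not replicates of a group.

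Chromosomes 12, 6 and 9 held 2.66, 2.77 and 3.07 regions per Mb. The other 26 autosomes together held 5.94 per Mb, with a range from 3.10 on chromosome 20, the nearest of the chromosomes outside the choice, to 15.3 on chromosome 19. Together the 3 chromosomes made up 12.6% of the autosomal length and 6.44% of the autosomal regions. Peaks covered 0.702% of chromosome 6, 0.746% of chromosome 9 and 0.676% of chromosome 12, against 1.71% of the other autosomes. The gap between chromosome 9 and chromosome 20 was narrow. In each list alone chromosome 20 came before chromosome 9, with 2.79 against 2.85 tender peaks per Mb and 2.35 against 2.41 tough peaks per Mb. In the second list that the authors deposited for each library, on other coordinates, chromosome 9 had the fourth lowest density with 2.89 per Mb behind chromosome 20 with 2.84 per Mb.

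The low density went along with a low number of genes. RefSeq, in the assembly ARS-UCD2.0, lists 560 protein-coding genes on chromosome 6, 471 on chromosome 9 and 355 on chromosome 12. Over the length of the lists this is 4.69, 4.46 and 3.90 genes per Mb, against 8.62 on the other autosomes together and 4.25 on chromosome 20. Counted per 100 protein-coding genes, chromosome 6 held 58.9 regions, chromosome 9 held 68.8 and chromosome 12 held 68.2. The other autosomes together held 68.9 per 100 genes, with a range from 44.1 to 90.6. By this count the 3 chromosomes stood in positions 3, 14 and 13 of the 29 autosomes from the lowest. Thus chromosomes 9 and 12 lay in the middle of the autosomes per gene, and chromosome 6 near the low end. The genes were counted in another assembly than the peaks, and whether a given gene carries a peak was not tested.

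**Figure D1:**
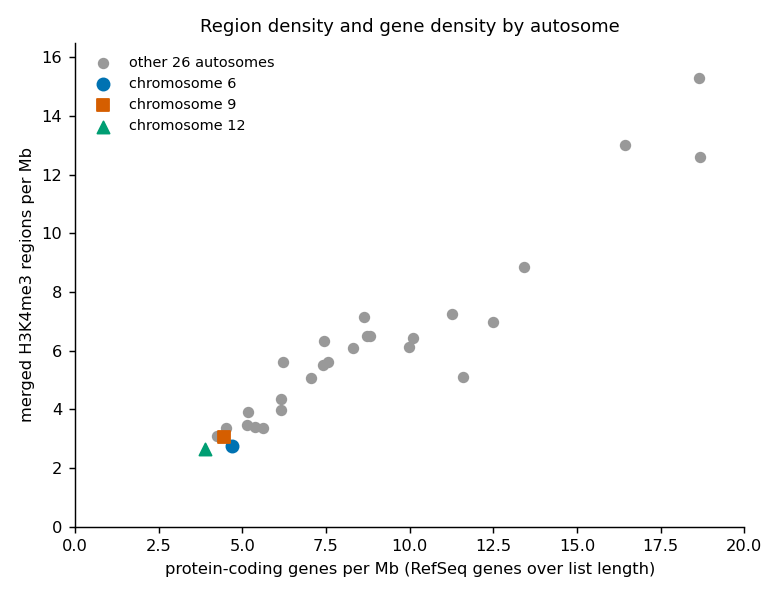
Merged H3K4me3 regions per Mb (vertical axis) against protein-coding genes per Mb of the same autosome (horizontal axis, RefSeq genes of ARS-UCD2.0 over the length of the peak lists), 1 point an autosome. Chromosomes 6, 9 and 12 lie at the lower left end, at 2.66 to 3.07 regions and 3.90 to 4.69 genes per Mb, in the same band as the other autosomes.

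Along chromosome 6 the regions were thin over most of the length and crowded near the end. The 10 Mb segments up to 100 Mb held between 14 and 36 regions each. The segment from 100 to 110 Mb held 65 regions, or 6.50 per Mb, and 23 of the 28 clustered regions of the chromosome. The fullest bin of 1 Mb held 16 regions. Tender peaks outnumbered tough peaks in the 100 to 110 Mb segment by 61 to 42. Of its 65 regions 38 were in both lists, 23 in the tender list alone and 4 in the tough list alone. Over all regions of the other autosomes 19.6% were in the tender list alone and 11.4% in the tough list alone. The segment was singled out after its values had been seen. The emptiest segments were those from 50 to 60 Mb and from 80 to 90 Mb, with 14 regions each.

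Chromosome 9 began almost empty and filled toward its end. Its first 10 Mb held 5 regions, and the last incomplete segment from 100 Mb on held 37, or 6.51 per Mb. The segments between held from 16 to 44 regions. The first 20% of the length held 8.64% of the regions of chromosome 9 and the last 20% held 31.2%. The other autosomes together held 17.2% in the first and 28.8% in the last 20%.

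Chromosome 12 was the most uneven of the 3. The first 10 Mb held 3 regions, the next 3 segments up to 40 Mb held 49, 40 and 56, and the segment from 40 to 50 Mb held 6. Another 6 regions lay between 60 and 70 Mb. The last stretch beyond 90 Mb is 1.1 Mb long and held 16 regions, or 14.6 per Mb. Of all regions of chromosome 12, 61.6% lay in the first 50% of the length, against 40.3% on chromosome 6 and 40.1% on chromosome 9. Of the 1 Mb bins of chromosome 12, 37.4% held no region, against 29.4% on chromosome 6, 21.9% on chromosome 9 and 20.6% on the other autosomes. The variance of the bin counts was 4.84 times their mean on chromosome 12, 3.63 times on chromosome 6 and 2.70 times on chromosome 9. In the second lists these ratios were closer together, at 3.72, 3.54 and 2.83. In the lists used here this ratio ranged from 3.31 to 16.7 on the other autosomes, so chromosome 9 had the lowest one. The ratio also depends on the mean count, which was 2.99 regions per bin on chromosome 9 and 5.89 on the other autosomes together. By its share of empty bins chromosome 9 stood 18th from the lowest of the 29 autosomes, so it is not called the most even.

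**Figure D2:**
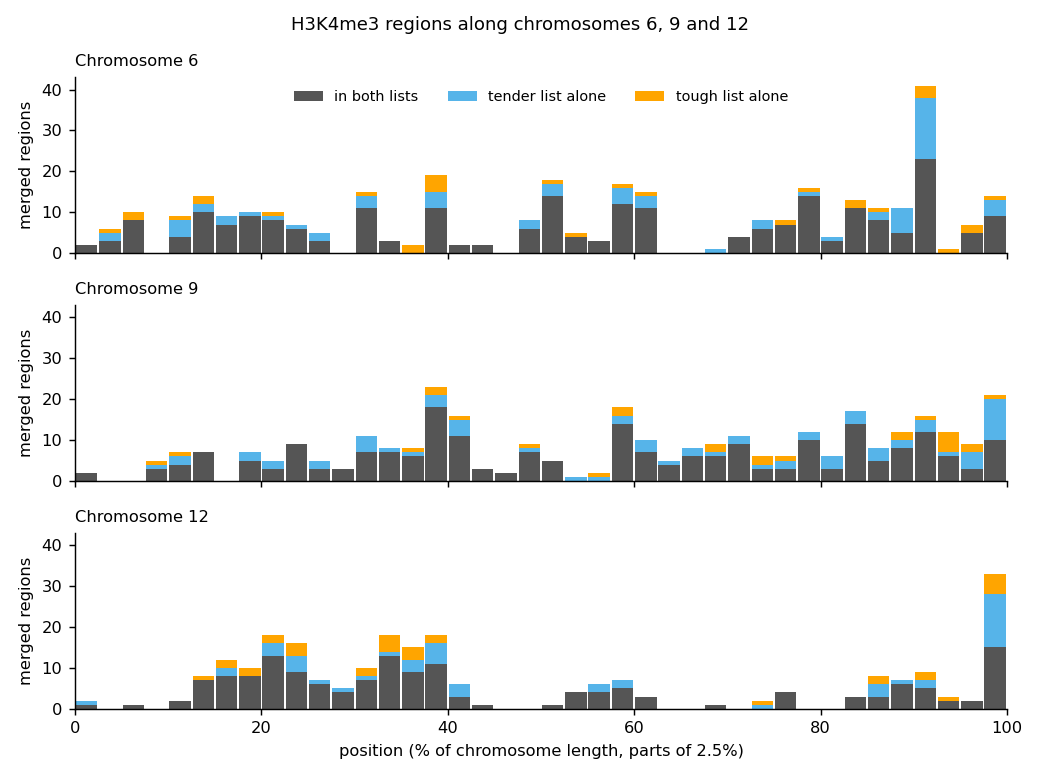
Number of merged H3K4me3 regions (vertical axis) in 40 equal parts of each chromosome (horizontal axis, percent of the length), split by the list or lists that hold them. Chromosome 6 peaks at 90% to 92.5% of its length with 41 regions, 15 of them in the tender list alone, and chromosome 12 in its last part with 33 regions.

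The longest stretch of the 3 chromosomes without a peak in either list was chr6:74188801-82961200, with 8.77 Mb or 7.35% of that chromosome. It was bordered on the left by a region of 600 bp that scored 61.7 for tender and 27.1 for tough steers, and on the right by a region of 3000 bp found in the tender list alone with a score of 41.8. The next gaps on chromosome 6 were chr6:51540001-58485600, of 6.95 Mb, and chr6:8026001-12718000, of 4.69 Mb. Both borders of the 6.95 Mb gap were in both lists, with scores of 166.3 and 88.0 on the left and of 78.9 and 79.3 on the right, tender before tough.

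On chromosome 9 the longest gap was chr9:623001-8953000, of 8.33 Mb, close to the start of the chromosome. It separated the border region on the left, of 1000 bp and with 15 tender and 9 tough reads, from one of 2000 bp with 21 tender and 22 tough reads. The next gaps were chr9:45477401-49714400, of 4.24 Mb, and chr9:15455601-18689600, of 3.23 Mb. All 6 borders of these 3 gaps were found in both lists.

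Chromosome 12 had 3 gaps of nearly the same length, chr12:55691801-62662000 of 6.97 Mb, chr12:40893401-47780600 of 6.89 Mb and chr12:70210401-76956600 of 6.75 Mb. Each took over 7% of the chromosome, and together with the fourth gap, of 5.97 Mb, they are the 4 gaps of 5 Mb or more there. In the second lists the longest gap of chromosome 12 was 4.42 Mb, so none of these 4 gaps was found there at its length. The region between 2 of the long empty stretches, chr12:40890001-40893400, was the loneliest region in both lists of the 3 chromosomes. It lay 4.15 Mb from the region before and 6.89 Mb from the region after, and it scored 92.5 with 33 reads in the tender and 134.6 with 48 reads in the tough list. The loneliest shared regions of the other 2 chromosomes were chr6:41684601-41686400, 1.88 Mb from its nearest neighbour with 16 tender and 21 tough reads, and chr9:55194001-55195400, 1.09 Mb from its neighbour with 36 tender and 30 tough reads.

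Of the 10 longest gaps of all autosomes, 5 were on these 3 chromosomes, and of the 100 longest, 19 were. The 3 chromosomes make up 12.6% of the autosomal length, so the count among the 100 longest is not far above that share. Of the 5 gaps 2 were on chromosome 12, where the longest gap in the second lists was 4.42 Mb. Gaps of 1 Mb or more numbered 26 on chromosome 6, 26 on chromosome 9 and 18 on chromosome 12. They took up 51.6%, 48.9% and 58.8% of the length, against 38.3% on the other autosomes. The median gap was 119.2 kb on chromosome 6, 132.6 kb on chromosome 9 and 77.6 kb on chromosome 12, against 44.8 kb. Gaps of up to 20 kb made up 14.3% of the gaps of the 3 chromosomes and 32.2% elsewhere. Set against the mean gap of its own chromosome, the longest gap was 24.8 times as long on chromosome 6, 25.8 times on chromosome 9 and 18.9 times on chromosome 12. On the other autosomes this ratio ran from 15.0 to 99.3 with a median of 26.6, so the longest gaps were within the range of the other autosomes once the lower density was taken into account.

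**Figure D3:**
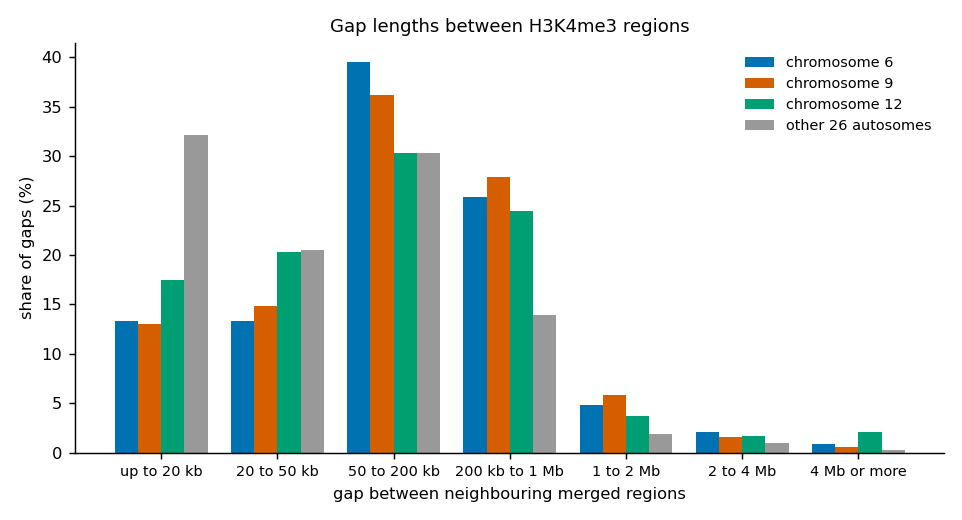
Share of the gaps between neighbouring regions (vertical axis, percent) in 7 classes of length (horizontal axis) on chromosomes 6, 9 and 12 and on the other 26 autosomes together. Gaps of up to 20 kb were 13.4%, 13.0% and 17.4% of the gaps of chromosomes 6, 9 and 12 against 32.2%, and gaps from 200 kb to 1 Mb were 25.8%, 27.9% and 24.5% against 13.9%.

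Regions at the edge of an empty stretch were for the most part common to both lists. On the 3 chromosomes 127 regions bordered a gap of 1 Mb or more, and 97 of them, 76.4% (Wilson 95% interval 68.3% to 82.9%), were in both lists. Of the 769 regions without such a border 526, or 68.4% (65.0% to 71.6%), were in both. On the other autosomes the shares were 68.5% and 69.0%. The 13 regions with a gap of 1 Mb or more on either side went the other way, with 6 in both lists. The intervals of the bordering and the other regions overlap. No interval of their difference was taken, so no difference is read from these shares.

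A run of 4 or more regions with gaps of at most 50 kb was called a cluster. Chromosome 6 had 6 clusters, chromosome 9 had 11 and chromosome 12 had 9. They held 8.48%, 15.1% and 19.0% of the regions, against 41.8% on the other autosomes. In the second lists these shares were 11.4%, 17.0% and 10.3%, against 42.0%, so the order of the 3 chromosomes was not kept. Only chr12:89269201-89492400, 1 of the 26 clusters of the 3 chromosomes, held 10 or more regions. On the other autosomes 146 of 748 clusters had that size. This cluster of 11 regions over 223.2 kb lay near the end of chromosome 12. Of its regions 4 were in both lists, 4 in the tender list alone and 3 in the tough list alone, and the highest peak scored 95.6 among the tender and 76.7 among the tough ones. The next clusters on chromosome 12, chr12:19225801-19328400 and chr12:30351801-30420800, held 5 regions each, 1 of them shared in the former and 4 in the latter. Clusters of equal size were taken in order of position, and chr12:83015601-83151000 also held 5 regions, 2 of them shared.

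Among the clusters of chromosome 6, 5 of the 6 lay between 107 and 110 Mb. The largest, chr6:109034801-109124400, had 6 regions in 89.6 kb, of which 4 were in the tender list alone, 1 in the tough list alone and 1 in both. The cluster chr6:108017001-108103000 had 3 of its 5 regions in the tender list alone and 2 in both. The remaining one of the largest 3, chr6:46875201-46976600, went the other way, with 3 of 5 regions in the tough list alone and 1 in the tender list alone. On chromosome 9 the largest cluster was chr9:100137601-100272200, with 3 regions in both lists, 3 in the tough list alone and none in the tender list alone. The clusters chr9:41166401-41276800 and chr9:87928801-88070000 held 5 regions each, with 3 and 5 of them in both lists. Equal in size was chr9:94748001-94853600, with 3 of 5 in both lists. As a background for these counts, 18.2% of the clustered regions of the other autosomes were in the tender list alone and 12.0% in the tough list alone.

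Of 123 clustered regions 68 were in both lists, or 55.3% (46.5% to 63.8%). Of the 773 regions outside clusters 555 were, or 71.8% (68.5% to 74.9%). On the other autosomes 69.8% of the clustered and 68.4% of the remaining regions were in both lists. The share was 32.1% in the 28 clustered regions of chromosome 6, 71.4% in the 49 of chromosome 9 and 52.2% in the 46 of chromosome 12, so the values of the 3 chromosomes lay far apart. Without chromosome 6 the clustered share was 62.1%, and without chromosome 9 it was 44.6%. Clusters were built on the merged regions, so a region of 1 list shortens the gaps beside it and helps to make a cluster. With tender or tough peaks alone 9.44% and 5.44% of the peaks of the 3 chromosomes were clustered, against 13.7% of the merged regions. On the other autosomes these shares were 38.2%, 35.9% and 41.8%. The clusters were also compared after their values had been seen, so nothing is read from the lower shared share.

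A lower share of common regions was seen at the ends of the chromosomes, on these and on the others. Most of the clustered regions of the 3 chromosomes lie in the last 20% of the length, so here this is not an observation separate from the clusters. In the last 20% of the length 60.1% (54.1% to 65.8%) of the 268 regions of the 3 chromosomes were in both lists, and 28.4% were in the tender list alone, against 23.2% in the last 20% of the other autosomes. In the other 4 parts of equal length the common share lay between 70.8% and 76.0%. The other autosomes had 63.6% (62.0% to 65.1%) in the last 20% and 70.4% to 73.2% before it.

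The median peak on chromosomes 6, 9 and 12 was slightly narrower than on the other autosomes together. The median width of tender peaks was 1800 bp on each of the 3, against 2000 bp on the other autosomes, and that of tough peaks was 2200, 2000 and 2200 bp against 2400 bp. The step of the lists is 200 bp, so these medians differ by 1 or 2 windows. The interval of the tender ratio, 0.9 to 1, reached equality, and with the same number of highest-scoring peaks from each list both tender medians were 2000 bp. Of the 26 others, 22 had a larger tender median than all 3 and 21 a larger tough median. On the 8 other autosomes with the lowest density the medians were 2000 bp for tender and 2200 bp for tough peaks, so the tough median there was no wider than on the 3 together. The mean width of tough peaks was 2423 bp on chromosome 6, 2321 bp on chromosome 9 and 2362 bp on chromosome 12. All 26 other autosomes had a larger mean, with 2438 bp as the smallest and 2751 bp over all of them. In the second lists 25 of the 26 had a larger mean.

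The difference was clearest in the widest peaks. In the tough list 16 of the 717 peaks were 5 kb or wider, or 2.23% (1.38% to 3.59%), against 7.24% (6.77% to 7.75%) of the peaks of the other autosomes. The shares were 1.51% on chromosome 6, 2.35% on chromosome 9 and 3.05% on chromosome 12, and those of the 26 others ran from 3.55% to 10.8%. In the second tough list 25 of the 26 others were above all 3. The remaining one, chromosome 20, had 2.47% there, below chromosome 6 with 3.03% and chromosome 12 with 3.09%. In the tender list 8 of the 816 peaks were that wide, or 0.980% (0.498% to 1.92%), against 3.09% (2.79% to 3.41%). The tender shares were 1.32%, 0.997% and 0.469%, and those of 24 of the 26 others were above all 3. In the second tender list chromosome 6 had 2.36%, and 19 of the 26 others were above all 3. Wide peaks were also fewer where peaks are few in general. On the 8 other autosomes with the lowest density, from 3.10 to 4.36 regions per Mb, 5.52% of the tough and 2.06% of the tender peaks were 5 kb or wider. These pooled shares are closer to the 3 chromosomes than those of all others, and they still exceed them by a factor of over 2. Taken singly, the 8 autosomes ran from 3.55% to 6.75% in the tough and from 1.05% to 2.75% in the tender list. The lowest tough share was near that of chromosome 12, and the lowest tender share, on chromosome 24, was below that of chromosome 6.

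**Figure D4:**
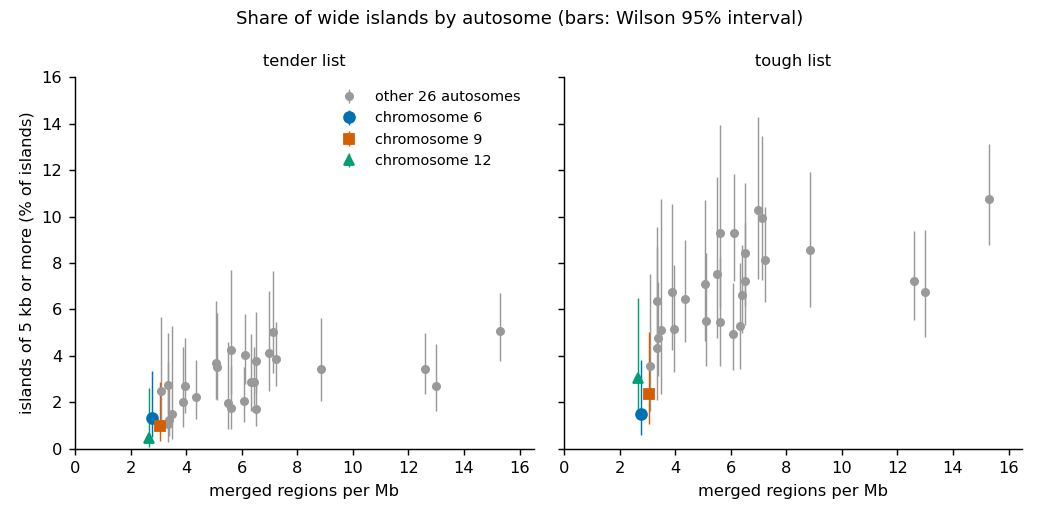
Share of peaks of 5 kb or more (vertical axis, percent of the peaks of an autosome, with Wilson 95% intervals for counting error) against merged regions per Mb (horizontal axis), 1 point an autosome, the tender list on the left and the tough list on the right. Chromosomes 6, 9 and 12 lie lowest in the tough list at 1.51% to 3.05%, while the other 26 autosomes begin at 3.55%.

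On the other autosomes wide peaks were more frequent in regions with a near neighbour than in those with the nearest one farther off. Among tough peaks in regions with a neighbour within 50 kb, 7 of 338, or 2.07%, were 5 kb or wider on the 3 chromosomes and 8.42% on the others. Among those with the nearest neighbour at 50 to 500 kb the shares were 2.27% and 4.35%. The tender shares were 1.02% and 3.72% in the near class, and 1.03% and 1.60% in the class from 50 to 500 kb. The classes rest on few wide peaks and were not set against each other. In the second tender list the shares of the 3 chromosomes were 0.498 of the others in the near class and 0.433 in the next. The median width of tough peaks in the near class was 2200 bp, against 2600 bp. Near neighbours were also less frequent here, since 48.8% of the regions had one within 50 kb against 70.9% elsewhere, and 33 regions, or 3.68%, had none within 500 kb against 1.66%.

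The widest peak of the 3 chromosomes was chr6:26342601-26352800, 10.2 kb wide in the tender list, where it was the 5th widest of all 12930 peaks. It was also the highest, with a score of 435.7, the 17th highest of the tender list. Its tough counterpart, chr6:26344601-26352800, was 8.2 kb wide and scored 258.7, again the widest and highest tough peak of the 3 chromosomes. The peaks with the next scores on chromosome 6 were chr6:47316201-47320200 with 248.1 and chr6:93745001-93748400 with 213.0 in the tender list. In the tough list they were chr6:23339801-23344600 with 198.9 and chr6:92075401-92078000 with 171.8. The peak at chr6:23339801 had nearly the same score of 199.3 in the tender list.

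On chromosome 9 the highest tender peaks were chr9:42117001-42122600 with 310.3, chr9:33942001-33950000 with 260.4 and chr9:41552601-41557200 with 225.2. The second of these was the widest tender peak of the chromosome with 8 kb. The highest tough peaks were chr9:41552001-41555800 with 214.5, chr9:42116201-42122800 with 211.8 and chr9:39921801-39925400 with 191.1. Thus 2 of the 3 highest peaks were the same in both lists, and all of these lay between 33 and 43 Mb. The widest tough peak, chr9:73305201-73313000, was 7.8 kb wide with 65 reads, and its tender counterpart was 4.2 kb wide with 45 reads.

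The highest peaks of chromosome 12 were lower, at 248.0 in the tender and 213.0 in the tough list. The highest tender peak, chr12:11171001-11173200, was the right border of the gap of 5.97 Mb, and its tough counterpart ranked next to the highest there with 210.1. It was 2.2 kb wide in the tender and 3 kb wide in the tough list. The highest and widest tough peak, chr12:78282601-78289600, was 7 kb wide, against 3.2 kb and a score of 155.3 in the tender list. The other named peaks were chr12:50885601-50890200 with 197.5 and chr12:30233401-30236200 with 175.6 in the tender list, and chr12:54850201-54852800 with 172.8 in the tough list. The widest tender peak, chr12:21913001-21918200, measured 5.2 kb and scored 166.6.

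The median score on the 3 chromosomes was 56.4 in the tender list, against 60.3 on the other autosomes, and 54.6 in the tough list, against 58.3. Both ratios were 0.936, and their intervals, 0.877 to 1.01 and 0.874 to 1.02, reached equality. On the 8 other autosomes with the lowest density the medians were 59.1 and 56.5. Of the 3, chromosome 12 had the lowest values, 53.8 in the tender and 48.7 in the tough list. No other autosome had a lower tough median, while 2 had one in the second tough list. The tender median of 3 other autosomes was lower than that of chromosome 12. High scores were rare. A score over 180 was reached by 2.94% of the tender peaks of the 3 chromosomes and 6.35% of those elsewhere, and by 1.39% and 3.64% of the tough peaks. Divided by the number of windows of a peak, the median score was 5.55 in the tough list, against 5.08 on the other autosomes, and 6.51 against 6.59 in the tender list. The tough peaks of chromosomes 6 and 9 had 5.73 and 5.88 per window, while those of chromosome 12 had 4.88.

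In the lists as deposited, the share of peaks without a counterpart in the other list was near that of the whole series. In the tender list 185 of the 816 peaks, or 22.7% (19.9% to 25.7%), had none, where the background over all tender peaks of the series is 21.9%. In the tough list 88 of the 717, or 12.3% (10.1% to 14.9%), had none, where the background is 13.9%. By chromosome the tender shares were 21.9%, 23.3% and 23.0%, and the tough shares were 11.3%, 10.2% and 16.2% on chromosomes 6, 9 and 12. None of these departs from the background by more than its counting interval. This depended on the score threshold. Among peaks with at least 2 times the lowest score, 28.6% of the tender peaks had no counterpart, against 23.6% on the other autosomes. That ratio was 1.21 (1.05 to 1.41), so its interval did not reach equality. For tough peaks the shares were 12.3% and 9.71%, with a ratio of 1.26 (0.960 to 1.67).

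Peaks found in 1 list were low. Their median was 13 reads in the tender and 14 reads in the tough list, against 25 and 23 reads for the shared peaks of the same chromosomes. Of the tender peaks with a score of up to 34.8, the lowest 25% of the list, 61.2% had no counterpart on the 3 chromosomes and 60.5% on the others. For tough peaks of up to 36.7, the lowest 25% there, these shares were 33.9% (27.5% to 40.8%) and 43.2% (41.3% to 45.1%). Of the 8 score classes of both lists this was the one in which the intervals were apart. In the highest 25% none of the 176 tender and none of the 154 tough peaks was without a counterpart, which allows shares of up to 2.14% and 2.43% (upper Wilson bounds).

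The highest tender peaks without a counterpart were chr6:16846401-16848400 with a score of 87.3 and 31 reads (exact Poisson 95% interval 21.1 to 44.0), chr9:43936801-43938600 with 93.0 and 32 reads, and chr12:90983201-90985000 with 81.2 and 27 reads. The highest such tough peaks were chr6:46972801-46976600 with 74.0 and 31 reads, chr9:77755601-77759000 with 54.2 and 24 reads, and chr12:89328401-89334600 with 68.5 and 33 reads. The tough peak of chromosome 6 lay in a cluster of 5 regions and that of chromosome 12 in the cluster of 11 regions. The latter was 6.2 kb wide, and the nearest region was 0.6 kb away.

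On the 3 chromosomes 609 peaks overlapped 1 to 1 between the lists. In 349 of these pairs the tough peak was wider, in 195 the tender peak was, and 65 pairs were equally wide. The median ratio of widths, tough over tender, was 1.125, against 1.154 on the other autosomes, with 1.14 on chromosome 6, 1.09 on chromosome 9 and 1.13 on chromosome 12. The tough peak was at least 1.5 times as wide in 148 pairs, or 24.3%, where the background over all pairs of the series is 28.3%. The tender peak was at least 1.5 times as wide in 63 pairs, or 10.3%, with a background of 9.52%. The tough library was also the deeper one, with 0.182 against 0.157 reads per window, and the part of depth in these widths was not tested.

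Scores leaned toward the tender list as they did elsewhere. The median ratio of scores, tough over tender, was 0.877 on the 3 chromosomes and 0.877 on the others, and the tender score was higher in 386 of the 609 pairs. The tender score was at least 2 times the tough score in 44 pairs, or 7.22%, where the background is 7.52%. The tough score was at least 2 times the tender score in 13 pairs, or 2.13%, where the background is 1.82%. Of these 13 pairs 8 were on chromosome 6, which is 3.46% of its 231 pairs. In the second lists the share was 3.12% on chromosome 6 and up to 3.69% on another autosome. In the 585 pairs with counted reads, tough over tender reads came to 0.963, against 0.976 on the others. Scores are compared here as deposited and are not scaled to depth.

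**Figure D5:**
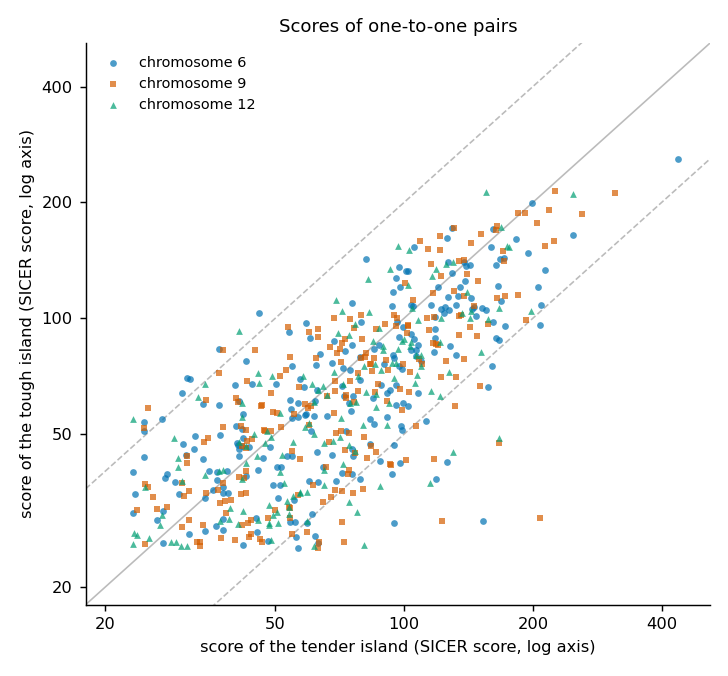
SICER score of the tough peak (vertical log axis) against that of the tender peak (horizontal log axis) for the 609 pairs on chromosomes 6, 9 and 12. The full line marks equal scores and the broken lines mark a factor of 2. Below the lower broken line lie 44 pairs, the farthest at 208.3 and 30.2, and above the upper one 13.

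The pair farthest from equality was chr9:98100001-98101000. Both lists gave it the same start and end and a width of 1000 bp. The tender score was 208.3 and the tough score 30.2, a ratio of 6.89, with 12 reads (6.20 to 21.0) behind the tough peak. On the other 26 autosomes the lowest ratio of tough over tender was 0.211, against 0.145 here, and in the second lists it was 0.175 there and 0.243 on chromosome 9. On chromosome 6 the farthest tender pair was chr6:107262601-107264200, with 44 reads (32.0 to 59.1) in the tender and 12 reads (6.20 to 21.0) in the tough list. It lay in one of the clusters near the end of chromosome 6. On chromosome 12 it was chr12:21486601-21488400, with 50 tender and 21 tough reads.

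The pairs with the largest tough excess were weaker. They were chr6:17800201-17801800 with 15 tender and 30 tough reads, chr9:89533801-89537200 with 11 and 25 reads, and chr12:82934801-82937600 with 11 and 23 reads. Their score ratios, tough over tender, were 2.26, 2.32 and 2.35. The exact intervals of the tender and tough reads overlapped in all 3 pairs, at 8.40 to 24.7 and 20.2 to 42.8 on chromosome 6, at 5.49 to 19.7 and 16.2 to 36.9 on chromosome 9, and at 5.49 to 19.7 and 14.6 to 34.5 on chromosome 12.

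The widths of pairs differed by up to 5 times. The tough peak was widest against its tender partner at chr12:30390201-30395000, with 4800 bp against 1000 bp and 18 against 20 reads, so the wider peak held no more reads. On the other chromosomes it was widest at chr9:12980801-12983200, with 2400 against 600 bp and 15 against 9 reads, and at chr6:38602201-38606000, with 3800 against 1200 bp and 42 against 32 reads. The tender peak was widest against its partner at chr9:24113001-24115000, with 2000 bp and 29 reads against 400 bp and 14 reads. At chr6:7647801-7649600 it was 1800 bp wide with 15 reads, against 800 bp with 23 tough reads. At chr12:30198001-30200000 it was 2000 bp wide with 17 reads, against 600 bp with 11.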

How the data were processed

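The chromosomes, measures and lists were chosen with earlier results of these data known. The H3K4me3 ChIP-Seq libraries came from LD muscle, 1 pooled from 4 tender and 1 from 5 tough steers, and were grouped by the sample labels. The paper states that reads were aligned with Maq to bosTau4 and that duplicate and ambiguous reads were removed. It names SICER for the peaks, version 1.1 by the submitters' processing notes, with windows of 200 bp. The gap size was 400 bp and the E-value 100. No control library is named. The values used are the SICER scores of the peaks as deposited by the authors, and positions are counted from 1.

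For each library 2 peak lists were deposited. The list with the scores per island, with 12930 tender and 11535 tough peaks, was used here, since the chromosomes were chosen on it. The other list, with 12452 and 11395 peaks, ends at different positions (chromosome 12 at 85.4 Mb and not at 91.1 Mb), so its coordinates differ, and it served as an alternative. The numbers of peaks in the study's text are those of this other list. Neither list states a build. The build named in the paper goes with the peak numbers of the other list, so the positions given here should not be read as bosTau4. Positions of the lists were never mixed.

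Peaks of both groups were merged where they overlapped by 1 bp or more, and the end of the last peak was used as chromosome length. Gaps run between merged regions. Clusters needed 4 regions with gaps of at most 50 kb. Reads per peak were solved from the scores within 2e-09 for scores up to 180, which gave 1 whole number for 94.0% of tender peaks and 96.5% of tough peaks. The total reads of a library are unknown here. Shares have Wilson and reads exact Poisson 95% intervals. The regions named on each chromosome are the 3 longest gaps, the 3 clusters with the most regions (ties by position), the 3 highest peaks, the widest peak and the highest peak without counterpart of each group, the pairs with the largest score and width ratios in each direction, and the loneliest region in both lists. Wide peaks, genes per chromosome, shared clusters and shared ends joined the analysis once values were known.

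As alternatives, peaks with at least 2 times the lowest score, each group alone, the span in place of the length, each chromosome left out, gaps of 2 Mb, bins of 5 Mb, clusters with gaps of 20 and 100 kb, the same number of peaks in each list, merged widths, overlap of 50%, a gap of 400 bp counted as shared, reads in place of scores and distance classes split at 20 kb and 1 Mb were tried. Those added later were the second lists, the count per gene, a width of 4 kb and the 8 sparsest other autosomes. The work used Python 3.11.15, matplotlib 3.10.9, scipy 1.17.1, pandas 2.3.3 and numpy 2.4.6, and was tested on simulated data. Gene positions and sequences were not used here.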

Additional observations from a re-analysis of the deposited data

How the results depend on the processing

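Each comparison was expressed as the value on chromosomes 6, 9 and 12 over that on the other 26 autosomes and repeated under the alternatives, 165 times for 36 results. In 143 cases the value stayed within the interval, or within 10% for the longest gap and within a factor of 2 for single pairs. The density of regions per Mb was 0.477 of the others and rose to 0.938 when counted per 100 protein-coding genes. The share of empty bins was 1.42 times that of the others and 1.72 times in bins of 5 Mb, where 1.61% of the bins were empty and the interval of 0.196 to 15.2 leaves the value without information. The share of regions in clusters, 0.328 of the others, was 0.0824 with the higher score threshold, 0.247 with tender and 0.151 with tough peaks alone, 0.032 with gaps of 20 kb, 0.467 with gaps of 100 kb and 0.402 without chromosome 6. With the higher threshold the share of peaks without counterpart went from 1.05 to 1.21 for tender and from 0.872 to 1.26 for tough peaks, so the tough share changed sides. The tough median width went from 0.917 to 0.923 with that threshold and with merged regions. The share of clustered regions in both lists, 0.792 of the others, was 0.639 without chromosome 9. The longest gap of 8.77 Mb was 10.8 Mb with the higher threshold and with tough peaks alone, and 7.55 Mb in the second lists, where the longest gaps of chromosomes 9 and 12 were 6.60 and 4.42 Mb. The cause of these shifts was not tested. No paired analysis was possible because each group has 1 library and no test was made.

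Depth limits what the lists can show, since no counted tender peak had under 8 reads and no tough peak under 9, and a place without a peak is one without a call at that level. Single pairs rest on few reads. The length of a chromosome is its last peak end.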
